A study of Arabidopsis thaliana with 2 samples.

Results

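SPCH, MUTE and FMA are the basic helix-loop-helix (bHLH) transcription factors that drive the stomatal lineage of the leaf epidermis of Arabidopsis. The genes were identified as probe sets whose platform annotation names a single gene, that gene being SPCH (AT5G53210), MUTE (AT3G06120) or FMA (AT3G24140, also called FAMA). Each of the 3 genes had exactly 1 such probe set, so choosing the brightest per locus changed nothing. They are 3 of 13286 loci with a single-gene probe set on the array.

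RNA came from seedlings of ecotype Col-0 that carried parts of a synthetic oxygen sensor, grown for 7 days on sucrose-containing medium without treatment. Triple expressor seedlings carried AD-HIFCOOD, GBD-pVHL and PHD3, and double expressor seedlings carried AD-HIFCOOD and GBD-pVHL without PHD3, so both genotypes shared the first pair of transgenes. PHD3 is an animal prolyl hydroxylase that uses oxygen to modify HIF, the animal transcription factor of low oxygen, and pVHL binds the modified form. Each genotype was measured on 1 Affymetrix array. The sources used here do not give the promoters of the transgenes, how many independent lines were used or how many seedlings were pooled, and a wild type is not analysed here. A single array per genotype allows neither a replicate error nor a test, so the differences below describe these 2 arrays only.

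The lineage starts when SPCH commits a protodermal cell to asymmetric division. MUTE then ends these divisions and turns the meristemoid, a small self-renewing precursor, into a guard mother cell. FMA acts last, limiting the guard mother cell to a single symmetric division and driving guard cell differentiation. Each acts as a dimer with SCRM or SCRM2, and secreted EPF peptides, the TMM and ERECTA-family receptors and a kinase cascade hold SPCH activity back. In a young seedling only a small share of cells is at any of these steps, and MUTE is known for a brief window of expression.

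Values are RMA values on the log2 scale, in which a difference of 1 is a 2-fold change. A value of 5.71, the 40th percentile of all values of gene probe sets, was used as a floor below which a probe set is dim. SPCH, the initiating factor, had 6.20 in triple expressor seedlings and 6.18 in double expressor seedlings. MUTE, the factor of the middle step, had 4.41 in triple expressor seedlings and 4.18 in double expressor seedlings. FMA, the factor of the last step, had 6.34 in triple expressor seedlings and 6.24 in double expressor seedlings. SPCH and FMA therefore lay above the floor on both arrays, and MUTE lay below it on both.

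**Figure D1:**
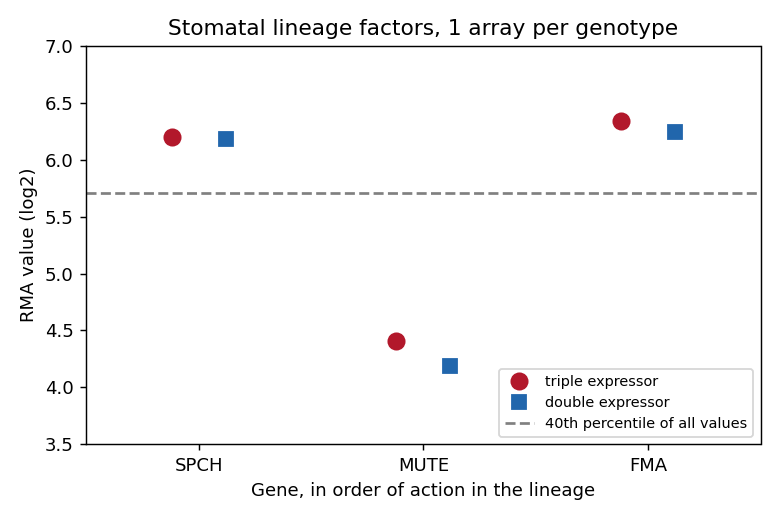
RMA values (log2, vertical axis) of SPCH, MUTE and FMA, in the order in which they act, on the triple expressor array (circles) and the double expressor array (squares), 1 array per genotype and so without error bars. The SPCH and FMA symbols lie above the dashed line at 5.71, the 40th percentile of all values, and the MUTE symbols lie below it.

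The order of probe set values was the same on both arrays, with FMA highest, SPCH next and MUTE lowest, and so did not follow the order of action. FMA exceeded SPCH by 0.14 in triple expressor seedlings and by 0.06 in double expressor seedlings, a small gap for which no replicate spread exists. SPCH exceeded MUTE by 1.79 in triple expressor seedlings and by 2.00 in double expressor seedlings. The MUTE value lay below the floor on both arrays and may hold little beyond background, so the size of its gap to SPCH has no firm meaning. Probe sets bind their transcripts with different strength and RMA values are not corrected for it or for transcript length, so this is an order of signals and not an order of transcript amounts.

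Relative to everything else on the arrays the 3 genes were moderate to dim. SPCH stood at the 45.4 percentile of gene probe sets in triple expressor seedlings and at the 45.7 percentile in double expressor seedlings. FMA stood at the 47.2 percentile in triple expressor seedlings and at the 46.5 percentile in double expressor seedlings. MUTE stood at the 27.8 percentile in triple expressor seedlings and at the 24.9 percentile in double expressor seedlings. Detection calls were not used here, so whether the MUTE signal exceeds the background of its probe set was not tested. On the linear scale the MUTE signal was 21.3 units in triple expressor seedlings and 18.2 units in double expressor seedlings, a gap of few units.

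The comparison of triple with double expressor asks whether adding PHD3 to the other sensor parts goes with a different level of the stomatal factors. None of the 3 genes was as much as 2-fold apart. The difference, triple minus double expressor, was 0.02 for SPCH, or 1.01-fold. It was 0.23 for MUTE, or 1.17-fold, and 0.10 for FMA, or 1.07-fold. All 3 values were thus above 0 as deposited, but that of SPCH was -0.01 after each array was centred on its median and -0.0059 after lowess centring, so SPCH has no settled direction. Median centring moved every difference alike, by -0.03, which is more than the SPCH difference itself. MUTE and FMA stayed above 0 under both centrings. With 32 added to the unlogged values, which damps dim probe sets, the MUTE difference was 0.09 and that of FMA 0.07. Of 13905 gene probe sets at or above the floor on the brighter array, 28 (0.201%) were 2-fold or more higher in triple expressor seedlings and 8 (0.0575%) were lower by that much. SPCH and FMA were the members in that set, and 0 of them passed in either direction. Over all 22746 gene probe sets 49.5% of the differences lay above 0 and 48.8% below 0, with a median of 0.

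Probe sets of like level, those with a mean within 0.5 of that of the gene, show how far the arrays differed in general at that brightness. For SPCH there were 2866 such probe sets, and 93.1% of them differed between the arrays by at least as much as SPCH did. For FMA, with 2978 such probe sets, 66.3% differed by at least as much. For MUTE, with 2657 such probe sets, 36.2% differed by at least as much in either direction, and 15.8% were as much higher in triple expressor seedlings. The central 95% of differences ran from -0.52 to 0.52 around MUTE, from -0.46 to 0.60 around SPCH and from -0.45 to 0.59 around FMA. All 3 genes therefore lay well inside the range of other probe sets as bright as they are.

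**Figure D2:**
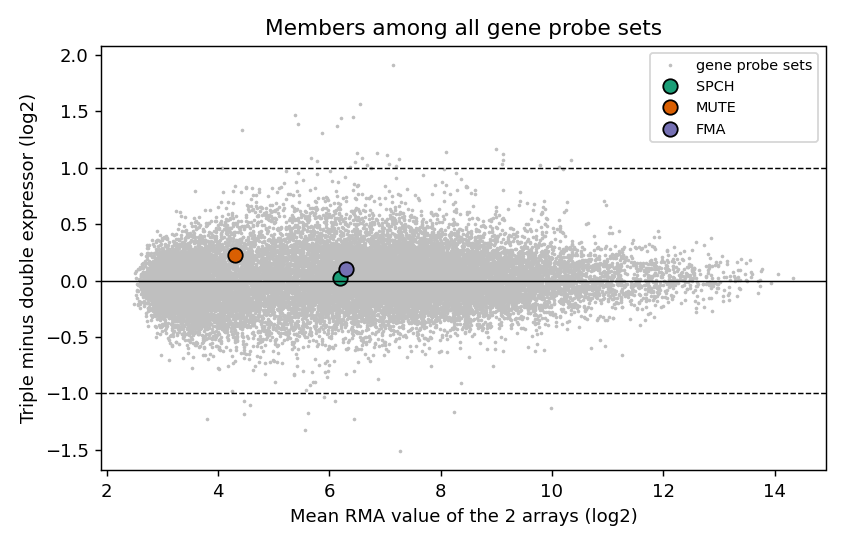
Difference between triple and double expressor (log2, vertical axis) against the mean RMA value of both arrays (log2, horizontal axis) for 22746 gene probe sets (grey), with SPCH, MUTE and FMA in colour and dashed lines at 2-fold. The members lie inside the grey cloud, at 0.02, 0.23 and 0.10.

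Loci with more than 1 probe set give another yardstick. Over 144 such loci the SD of a difference per probe set was 0.20, and it was 0.17 over the 59 loci with both probe sets above the floor. The FMA and SPCH differences were smaller than these values and the MUTE difference was slightly larger. This SD comes from probe sets of the same gene read on the same arrays and leaves out variation between plants and RNA preparations. The bacterial and phage hybridisation controls, which contain no plant RNA, differed too: 15 of 18 were higher on the triple expressor array, with a median difference of 0.16 and a range of -0.12 to 0.37. These controls are probe sets of bioB, bioC, bioD and cre only, so they are not 18 separate readings. Their part in the MUTE and FMA differences was not tested.

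Because the 3 genes mark successive steps, their differences were also set against each other within each array. The MUTE signal relative to SPCH was -1.79 in triple expressor seedlings and -2.00 in double expressor seedlings, so the difference of the differences was 0.21. For FMA relative to SPCH it was 0.08, and for FMA relative to MUTE it was -0.12. The SD per probe set given above corresponds to 0.29 for such a contrast of 2 probe sets, and all 3 contrasts were smaller. With 32 added to the unlogged values the contrast of MUTE with SPCH was 0.07. In bulk seedling RNA, fewer cells at a step and less RNA per cell cannot be told apart.

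Other genes of the lineage were taken from lists by role. Of 76 loci on these lists, 8 had a single-gene probe set and a name in the RefSeq table, and 0 of the 8 were 2-fold apart. Of the 8 genes, 6 were higher and 2 lower in triple expressor seedlings, with a median difference of 0.10 and a range of -0.57 to 0.34, beside the 49.5% of all gene probe sets above 0 and their median of 0. Including 4 further loci of these lists that carry only a locus code, 7 were higher and 5 lower, with a median of 0.04. With 8 loci the list describes a small piece of the pathway. SCRM and SCRM2, all 9 receptors and co-receptors, among them TMM and ERECTA, and all 10 kinases and phosphatases on the lists are not analysed here.

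Among signals that reach the lineage, STOMAGEN encodes a secreted peptide that promotes stomatal development by competing with the inhibitory EPF peptides. It was the brightest of the 8, at 8.88 in triple expressor seedlings and 9.01 in double expressor seedlings, a difference of -0.13. ATSBT5.2 encodes a secreted subtilase linked to processing of the inhibitory peptide EPF2. Its values were 6.57 in triple expressor seedlings and 6.54 in double expressor seedlings, and its difference of 0.02 turned to -0.01 after median centring and to -0.0044 after lowess centring. Neither the promoting peptide nor the protease was far apart between the genotypes.

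Genes that act beside or after SPCH went both ways. ATBRXL2 belongs to the BREVIS RADIX-LIKE family, and its protein joins the polar domain of dividing lineage cells. It had 6.04 in triple expressor seedlings and 5.71 in double expressor seedlings, a difference of 0.34. The double expressor value of ATBRXL2 lay right at the floor, and with 32 added to the unlogged values its difference was 0.22. SOL1, a CXC-domain protein that helps cells pass from one lineage state to the next, had 7.35 in triple expressor seedlings and 7.22 in double expressor seedlings. RR16 encodes a type-A response regulator of cytokinin signalling that SPCH is known to target. It had 4.57 in triple expressor seedlings and 5.14 in double expressor seedlings, a difference of -0.57 and the widest of the 8. Both RR16 values lay below the floor, and with 32 added to the unlogged values the difference was -0.27.

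The regulators AGL16 and IDD16 and the related gene BHLH94 differed by 0.24 or less. AGL16, a MADS-box factor that promotes further divisions in the lineage, had 7.28 in triple expressor seedlings and 7.04 in double expressor seedlings, a difference of 0.24. IDD16, a zinc finger protein that represses SPCH, had 4.28 in triple expressor seedlings and 4.22 in double expressor seedlings and lay below the floor on both arrays. BHLH94, a bHLH protein related to the members, was dim as well, at 5.26 in triple expressor seedlings and 5.02 in double expressor seedlings. Its difference of 0.23 was as large as that of MUTE. BHLH94 was the only 1 of 7 listed relatives with a named probe set, so it does not stand for that list. Listed loci that carry only a locus code are given below, and more of them were lower than higher in triple expressor seedlings.

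FMA leads to guard cells, and 2 of 25 listed genes of mature guard cells had a named probe set. CHX20, a cation/proton exchanger of guard cells, had 6.51 in triple expressor seedlings and 6.72 in double expressor seedlings, a difference of -0.20. BLUS1, a kinase of blue light signalling in guard cells, had 5.83 in triple expressor seedlings and 5.75 in double expressor seedlings, a difference of 0.08. These 2 named genes of the end of the lineage thus went opposite ways, by about 0.20 or less. Listed loci that carry only a locus code are left out here and given below.

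**Figure D3:**
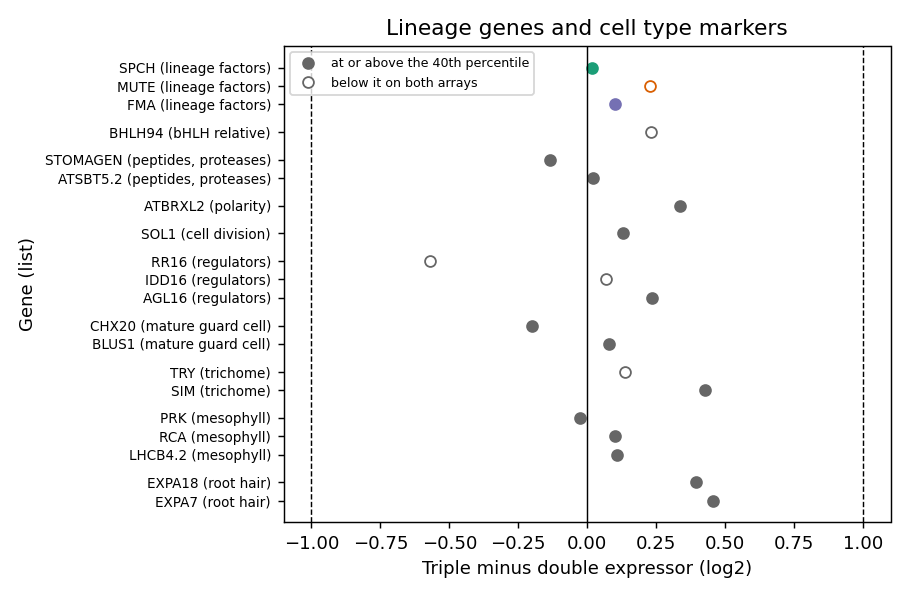
Difference between triple and double expressor (log2, horizontal axis) for the members, the named lineage genes and the named markers of other cell types, 1 probe set per gene, with dashed lines at 2-fold. Filled symbols reached the floor of 5.71 on at least 1 array and open symbols did not, and every symbol lies between -0.57 and 0.46.

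Markers of other cells that a whole seedling holds were read beside the lineage genes. Only 2 of 11 listed trichome, 2 of 5 root hair and 3 of 6 mesophyll markers had a named probe set. TRY, a repressor of trichome fate, is the gene next to SPCH on chromosome 5, and had 4.61 in triple expressor seedlings and 4.47 in double expressor seedlings. Both TRY values lay below the floor. SIM, a cell cycle inhibitor of developing trichomes, was higher by 0.43. The root hair expansin genes EXPA7 and EXPA18 were higher by 0.46 and 0.40, each by more than MUTE. The mesophyll genes LHCB4.2, RCA and PRK differed by 0.11, 0.10 and -0.03. On the linear scale the summed signal of the trichome markers, in log2, was 7.68 in triple expressor seedlings and 7.30 in double expressor seedlings, and that of the root hair markers was 7.53 in triple expressor seedlings and 7.11 in double expressor seedlings. Summed mesophyll signal was 14.63 in triple expressor seedlings and 14.56 in double expressor seedlings. The trichome sum was mostly SIM, with 181 units in triple and 135 in double expressor seedlings. TRY gave 24.4 units in triple and 22.2 in double expressor seedlings. All 7 listed markers of the cuticle and all 6 of phloem and xylem are not analysed here. The part of these marker differences in those of MUTE and FMA was not tested.

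In all, 7 listed loci carry only a locus code in the tables used, the 4 counted above among them, and are given without a role. Of these, 2 were higher and 5 lower in triple expressor seedlings, beside 49.5% above 0 and 48.8% below 0 over all gene probe sets, and 3 of the 7 lay below the floor on both arrays. AT5G10310 was at 0.36, AT5G06970 at 0.03, AT3G01490 at -0.01, AT4G01460 at -0.06, AT5G50000 at -0.17, AT5G65320 at -0.28 and AT3G61950 at -0.35. They lay within the range of the named lineage genes except AT5G10310. A pattern over 2 arrays cannot be matched to that of another gene, so no gene is named for likeness to SPCH, MUTE or FMA.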

How the data were processed

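RNA of 7-day-old seedlings was hybridised to 1 Affymetrix array per genotype. The authors deposited log2 values for 22810 probe sets, which the submitters' processing notes credit to RMA without a version, and the log2 scale was read from the range, 2.39 to 14.3. RMA puts both arrays on one distribution, which hides any shift common to most genes. The 64 control probe sets were left out of all counts. Genes were named through the platform annotation and a RefSeq table of the TAIR10.1 assembly, and coordinates were left out since the probe sets come with no named build.

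Groups came from the sample titles. Differences are triple minus double expressor, with no model fitted. Lists used the brightest probe set per locus. Named genes were the members and every measured, RefSeq-named locus of the lineage and guard cell lists. Up to 2 markers per other cell type were also named, with the third mesophyll gene added after values were seen. Measured loci without a RefSeq name were given by locus code only. The members and lists were chosen with earlier results of these data known. Counting and centring were tested on simulated data. Alternatives were median or lowess centring (span 0.3), adding 32 before log2, other floors, a 1.5-fold threshold, all probe sets per locus and leaving out cross-hybridising probe sets. Python 3.11.15, numpy 2.4.6, pandas 2.3.3, statsmodels 0.14.6 and matplotlib 3.10.9 were used. With 1 array per group, the number of arrays limits the precision.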

Additional observations from a re-analysis of the deposited data

How the results depend on the processing

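Of 12 recomputed differences of SPCH, MUTE and FMA, 2 turned sign: SPCH was at -0.01 with each array centred on its median and at -0.0059 with lowess centring, against 0.02 as deposited. MUTE ranged from 0.09 with 32 added to the unlogged values to 0.25 with lowess centring, and FMA from 0.07 to 0.10. None of the 16 recomputed medians of the regulators, the mesophyll genes and all other lineage genes turned sign. Some of these could not turn, since averaging probe sets changed nothing and every mesophyll gene lay above the floor. The median over the other lineage genes was 0.04 with 4 lineage loci listed by code only included, an alternative chosen after seeing the data, and 0.13 over genes above the floor. Counts of probe sets past 2-fold, 28 higher and 8 lower, were 9 and 3 with 32 added, 16 and 3 with a floor at the 60th percentile, and 213 and 76 at 1.5-fold, which by construction keep fewer or more. Each member and each named list gene had 1 probe set, so averaging probe sets could change nothing. No replicate could be left out. No paired analysis was possible because there is a single array of each genotype. The dim MUTE signal limits what its difference can show.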
